A study of Mus musculus with 28 samples.

Results

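The 12 libraries described here come from mouse cortex at E14.5, in embryonic days, and compare 6 embryos heterozygous for a knocked-out Myt1l gene (Het) with 6 wild-type embryos (WT). They were chosen by their titles, which name cortex and genotype, and make up 12 of the 28 RNA sequencing libraries of the series. The other libraries are 4 homozygous (Hom) E14.5 cortices and 12 Het and WT adult prefrontal cortices (PFC), used below for the fit or for single comparisons. The study asked how losing MYT1L alters transcripts in the developing and the adult cortex. WT embryos carry no knockout allele, Het embryos carry it on 1 chromosome and Hom embryos on both. The sources used here give neither the strain nor the design of the allele, and name no treatment. By label, 5 WT embryos were female and 1 male, and 3 Het embryos were female and 3 male.

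MYT1L is a zinc-finger transcription factor made by neurons soon after they leave the cell cycle. It binds the short DNA core AAGTT and recruits SIN3B and histone deacetylases, and in reprogramming and cell culture it represses genes of non-neuronal programmes and of Notch and Wnt signalling. At E14.5 the cortex holds dividing radial glia and intermediate progenitors beside newly born deep-layer and upper-layer projection neurons. In people, loss of a single MYT1L copy causes a neurodevelopmental syndrome, which makes the heterozygous embryo the genotype closest to the human condition.

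Values are CPM, a gene's share of a library on a scale common to all libraries, recovered from the authors' log2 table, and each change is a difference of log2(CPM + 0.5) from limma. Genes are called when the Benjamini-Hochberg adjusted p was under 0.05, and rose, fell, higher or lower refers to called genes. The defining transcripts of dorsal cortex were present in every WT and Het library: Emx1 lay between 15.9 and 22.4 CPM and Neurod6, a factor of cortical projection neurons, between 1260 and 1869 CPM. Transcripts of the Y chromosome went against the labelled sex in 2 Het libraries: the library labelled Het F10 held 21.6 CPM of Ddx3y, and the library labelled Het M11, a male by label, held 0. The animal identifiers fall under 2 prefixes, whose meaning the labels do not give. Prefix 14424 covers 4 WT and 4 Het embryos and prefix 14526 covers 2 of each. Fits within a prefix also held labelled sex and the Hom libraries. In prefix 14526 the males are Het M01 and Hom M02, so the change there compares Het F07 alone with the 2 WT embryos. In bulk tissue, fewer cells of a type and less RNA per cell cannot be told apart.

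Myt1l itself was at 77.1% of the WT mean in Het embryos, and this difference did not pass the test. The gene (ENSMUSG00000061911, chromosome 12, 29528384 to 29923213, plus strand of GRCm38) read 45.9, 49.9, 49.96, 58.9, 62.0 and 66.6 CPM in the WT libraries. The Het libraries read 30.6, 30.8, 41.1, 45.95, 48.9 and 59.5 CPM. The groups overlapped: the 2 lowest Het values belong to the libraries labelled M11 and F10, the same pair whose Y-linked transcripts go against the label, and 3 of the 6 Het libraries, F07, M07 and F02, lay inside the WT range. On the log2 scale Het minus WT came to -0.39 (SE 0.15, adjusted p = 0.125 by limma) with 6 libraries a group. It was -0.39 among prefix 14424 and, from Het F07 alone against WT, -0.32 among prefix 14526. Without the pair with unmatched sex it was -0.17 (adjusted p = 0.402), and leaving out single libraries gave -0.54 to -0.26. It passed the test in 1 of those fits, the one without Het F02 (-0.54, adjusted p = 0.0356). The 4 Hom libraries lay between 18.2 and 23.3 CPM, below every Het library.

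Neither relative of Myt1l was called in Het cortex. St18, a zinc-finger factor of the same family, measured 13.9 to 18.7 CPM (median 14.95) in WT and 10.2 to 15.5 CPM (median 12.8) in Het, a change of -0.31 (SE 0.13, adjusted p = 0.164). Myt1, the founding member of the family, measured 29.9 to 36.95 CPM (median 35.1) in WT and 29.5 to 37.6 CPM (median 31.2) in Het, a change of -0.08 (SE 0.09, adjusted p = 0.640). The Myt1 ranges overlap widely. Those of St18 overlap between 13.9 and 15.5 CPM, and its Het median lies below every WT library.

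**Figure D1:**
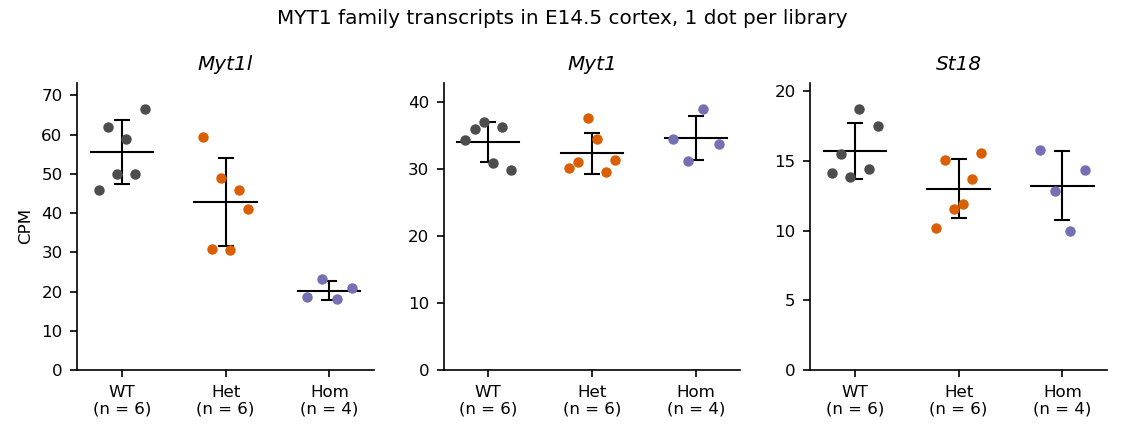
CPM of Myt1l, Myt1 and St18 (vertical axis, from 0) in each E14.5 library, grouped by genotype; dots are libraries, the line is the mean and the bar the SD. For Myt1l the Het dots spread from 30.6 to 59.5 CPM and reach into the WT range, while the Hom dots lie at 18.2 to 23.3 CPM.

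Across the table, 724 of 12429 genes tested (5.83%) were called in Het cortex, 353 higher (2.84%) and 371 lower (2.98%), and most moved by little. The median size of a called change was 0.38 on the log2 scale, 145 called genes moved by more than 0.5 and 6 by more than 1. A median fallen gene was at 79.8% of its WT mean and a median risen gene at 131.6%. Het libraries lay entirely above the WT libraries for 108 called genes and entirely below for 125. Over all genes tested, the same held for 1.24% and 1.33%. Of all changes, called or not, 6813 were positive and 5616 negative. Genes called lower had a median GC content of 52.6% and genes called higher one of 44.4%, against 49.6% over all genes. Their median transcript lengths were 3290, 2741 and 3508 bases.

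How many genes passed turned on the fit and on single libraries. The count was 379 with the Het and WT libraries only, 335 with the 2 directions emptied by the authors' adjustment as covariates and 225 without the trended and robust variance. Among the fits that left out a library, the count was 131 when Het F07 was missing, 303 for WT F04, 404 for Het F02 and 433 for Het M01. It was 440 for WT F06, 468 for WT F12 and 473 for Hom M02, and it was 1177 when Het M07 was missing. The Het libraries differed in how far they stood from the WT mean: over the called higher genes the median distance was 0.52 in Het F07 and 0.20 in Het M07 on the log2 scale, with the other 4 between 0.24 and 0.44. Over the called lower genes it was -0.49 in Het F07 and -0.17 in Het M07. There were 124 genes called in each of the 16 fits that left out a library, 52 higher and 72 lower.

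Within prefix 14424, with 4 embryos a group, 0 genes were called by limma and 1005 had an unadjusted p under 0.05. Within prefix 14526 the change compares Het F07 alone with WT F04 and WT F09, so nothing is drawn from a count there. The test of the difference between the prefixes called 0 genes, with 549 at an unadjusted p under 0.05. Without the pair of Het libraries with unmatched sex, 1086 genes were called, 594 higher and 492 lower. The split between higher and lower also moved with scaling. After each library was centred on its median, 213 genes were called higher and 509 lower. A fit corrected for base composition and transcript length called 112 higher (0.902%) and 381 lower (3.07%).

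**Figure D2:**
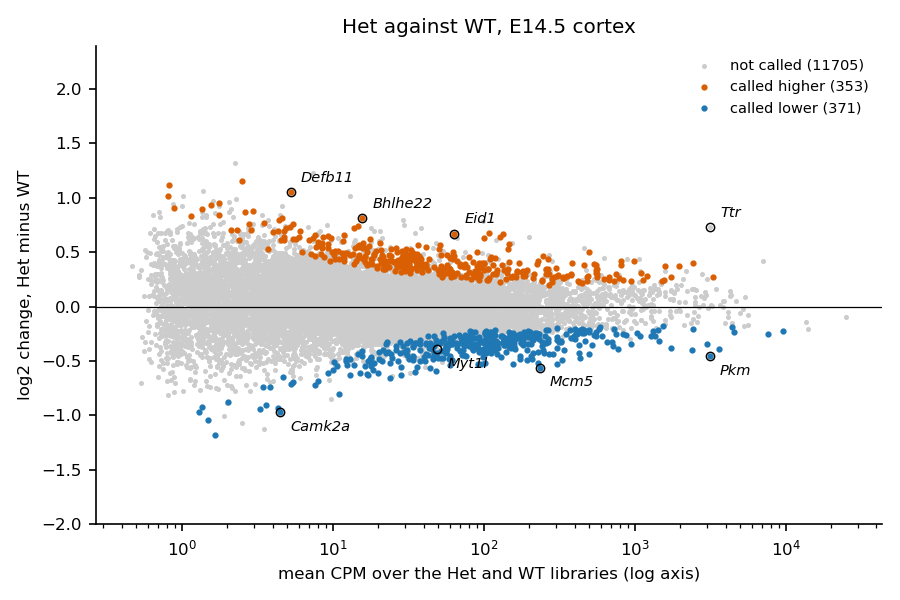
Log2 change of Het minus WT (vertical axis) against the mean CPM over the 12 libraries (horizontal log axis) for each of the 12429 genes tested; orange genes were called higher, blue lower, grey not called, and 8 genes are ringed. Most coloured points lie within 0.5 of 0, and Myt1l at -0.39 lies among the grey points.

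Central carbon metabolism gave 13 of the 371 genes called lower. Glycolysis splits glucose to pyruvate, and the pentose phosphate branch supplies ribose and NADPH to dividing cells. Of 24 genes of these pathways (25 rows, since Aldoa is listed under 2 identifiers), 13 were called lower and 0 higher. Over all genes 2.98% were called lower and 2.84% higher. The median change was -0.25 against 0.03 over all genes. Pkm, which makes pyruvate in the last step (chromosome 9, 59656368 to 59679375), measured 3397 to 3913 CPM (median 3550) in WT and 2292 to 2928 CPM (median 2716) in Het. Every Het library lay below every WT library, and Pkm fell by 0.46 (SE 0.06, adjusted p = 0.000463).

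Enolase and the transketolase of the pentose phosphate branch were separated in the same way. Eno1 measured 2501 to 2987 CPM (median 2750) in WT and 1845 to 2459 CPM (median 2032) in Het and fell by 0.40 (SE 0.07, adjusted p = 0.00296). Tkt measured 701 to 842 CPM (median 819) in WT and 604 to 673 CPM (median 624) in Het and fell by 0.36 (SE 0.06, adjusted p = 0.00296). Aldoc, an aldolase that is also a marker of astrocytes and radial glia, fell by 0.39 without overlap, from 772 to 995 CPM down to 618 to 739 CPM. Gapdh fell by 0.39 (SE 0.08, adjusted p = 0.00718), but Het M07 at 3963 CPM stood inside the WT range of 3755 to 4524 CPM, with the other Het libraries at 2785 to 3107 CPM. Gapdh is often used to normalise such samples, and in these libraries it was itself called lower.

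Gpi1, which interconverts hexose phosphates, fell by 0.32, and the called members also included Ldha, G6pdx, Tpi1, Pfkm, Pfkl, Pgk1 and Pgd, with changes between -0.35 and -0.21. The members' median change was -0.18 in prefix 14424 and, from Het F07 alone against WT, -0.45 in prefix 14526. Without Het F07, 5 members were called lower and without WT F04, 8. Correction for GC content and length left 12. With Het and WT libraries only 8 were called lower, with the emptied directions as covariates 7, and without the trended and robust variance 4. Among 18 genes of the hypoxia response 1 was called, a share near the 5.83% over all genes. Hif1a, the oxygen-regulated activator of many glycolytic genes, rose by 0.49 (SE 0.10, adjusted p = 0.00821). It measured 22.4 to 27.7 CPM in WT and 30.1 to 43.7 CPM in Het, without overlap. Vegfa, a target that hypoxia induces, was not called (0.45, adjusted p = 0.250). Without Het F07, Hif1a was not called.

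Next come the genes that license and fire replication origins. The MCM2 to MCM7 proteins form the ring that unwinds DNA, and MCM10 and CDC45 help start it. Of 23 genes of this list, 5 were called lower and 0 higher (2.98% and 2.84% over all genes). Of the 23 changes 9 were positive, and the median was -0.14. Mcm5 (chromosome 8, 75109569 to 75128439) measured 221 to 333 CPM (median 274) in WT and 152 to 238 CPM (median 185) in Het and fell by 0.56 (SE 0.09, adjusted p = 0.00319). WT F05 lay below 2 Het libraries, M07 and M11, so the groups overlap at that edge.

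Mcm7 measured 426 to 556 CPM (median 496) in WT and 318 to 428 CPM (median 363) in Het and fell by 0.47 (SE 0.08, adjusted p = 0.00226). Mcm3 fell by 0.42, Mcm10 by 0.48 and Cdc45 by 0.37. The other subunits of the ring were not called: the change was -0.23 for Mcm2 (adjusted p = 0.118), -0.14 for Mcm4 (0.398) and 0.14 for Mcm6 (0.672), the last with the opposite sign. The list's median was -0.09 in prefix 14424 and, from Het F07 alone against WT, -0.26 in prefix 14526. The number of members called lower was 3 without Het F02, WT F04 or Het F07 and 3 without the trended and robust variance.

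The promoters of the 3 MCM genes with the lowest p are shown as examples, chosen after these genes were called lower. Each window is the 250 bases before the gene's start on its own strand, from RefSeq on GRCm38.p6: chr1:20820313-20820562 on the minus strand for Mcm3, chr8:75109259-75109508 on the plus strand for Mcm5 and chr5:138171884-138172133 on the minus strand for Mcm7, for which RefSeq also gives another start. Capitals mark matches on either strand to CCAAT, the box bound by NF-Y, or to the E2F elements TTTCGCGC, TTTGGCGC, TTTCCCGC and TTTGCCGC.
Mcm3: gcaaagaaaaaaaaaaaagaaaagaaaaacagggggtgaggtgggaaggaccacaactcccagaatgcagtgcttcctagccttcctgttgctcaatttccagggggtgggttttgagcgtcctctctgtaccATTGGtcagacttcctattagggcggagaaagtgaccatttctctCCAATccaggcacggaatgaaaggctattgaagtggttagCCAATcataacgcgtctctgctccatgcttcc
Mcm5: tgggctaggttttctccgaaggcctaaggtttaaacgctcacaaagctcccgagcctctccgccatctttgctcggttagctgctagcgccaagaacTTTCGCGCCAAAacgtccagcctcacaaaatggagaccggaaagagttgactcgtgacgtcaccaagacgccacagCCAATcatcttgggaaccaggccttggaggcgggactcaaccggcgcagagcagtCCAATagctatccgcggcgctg
Mcm7: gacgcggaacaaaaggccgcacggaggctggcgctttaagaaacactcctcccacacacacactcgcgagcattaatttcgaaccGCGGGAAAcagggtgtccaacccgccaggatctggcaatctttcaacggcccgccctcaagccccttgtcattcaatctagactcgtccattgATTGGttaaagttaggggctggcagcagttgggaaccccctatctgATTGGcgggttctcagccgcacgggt
In Mcm5 a pair of E2F matches overlap each other on opposite strands, in Mcm7 there is 1, and Mcm3 has no E2F match.

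Among 9822 genes tested that have a RefSeq promoter, 41.2% held CCAAT and 3.97% an E2F match in such a window. Over the 300 genes called lower that have a promoter, 40% held CCAAT and 5% an E2F match. All 5 called members of the licensing list held CCAAT and 2 an E2F match, while of the 18 members with a promoter 12 held CCAAT (66.7%) and 7 an E2F match (38.9%). A match is a description of letters and not a bound site.

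Genes of DNA synthesis and of mitosis form separate lists. Of 33 S phase genes, 5 were called lower and 1 higher (2.98% and 2.84% over all genes), with a median of -0.11. Rrm1, the large subunit of ribonucleotide reductase, measured 311 to 382 CPM (median 342) in WT and 231 to 320 CPM (median 268) in Het and fell by 0.38 (SE 0.07, adjusted p = 0.00611). Dnmt1, the maintenance DNA methyltransferase, fell by 0.43, Rpa1 by 0.30, Prim2, a primase subunit, by 0.28 and Tk1, thymidine kinase, by 0.26. Rpa3, the small subunit of replication protein A, rose by 0.34 (SE 0.08, adjusted p = 0.0102), but corrected for GC content and length its change was -0.07 (adjusted p = 0.731). Of these 33 genes, those called lower numbered 1 without Het F07, 2 without Het M01, WT F04 or WT F06, 3 without Het F02, WT F09, Hom F04 or Hom M02 and 8 without Het M11. They numbered 2 with Het and WT libraries only or with the emptied directions as covariates, 1 without the trended and robust variance, 3 without a filter on low values and 8 after GC and length correction or without the pair with unmatched sex. Rpa3 was not called without Het F07.

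Of 37 genes of G2 and mitosis, 7 were called lower and 0 higher (2.98% and 2.84% over all genes), with a median of -0.13. Of the 37 changes 30 were negative, against 5616 of 12429 over all genes. Cdc25b, a phosphatase that admits progenitors to mitosis, measured 54.4 to 71.4 CPM (median 61.4) in WT and 42.6 to 60.1 CPM (median 48.3) in Het and fell by 0.42 (SE 0.08, adjusted p = 0.00645). Aurka, a spindle kinase, fell by 0.31 and Ccnb1, the mitotic cyclin, by 0.25, each without overlap between groups. Kif20a, a cytokinesis motor, fell by 0.52, Bub1b by 0.36 and Tpx2 by 0.27, and Prc1 was called lower too. CCAAT was found before 24 of the 31 members that have a promoter (77.4%), and the cell-cycle homology element TTTGAA before 12 (38.7%) against 12.7% of all. Of the 5 called members with a promoter, all 5 held CCAAT and 1 held TTTGAA (20%). Members called lower numbered 2 without Het F02, 2 without WT F04, 1 without Het F07, 3 with the emptied directions as covariates and 1 without the trended and robust variance.

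Of 32 G1 cyclins, CDK inhibitors and E2F factors, 2 were called higher and 0 lower, a share near the 5.83% over all genes, with a median of -0.01. Cdkn1c, the inhibitor p57 that rises as cortical cells leave the cycle, measured 66.4 to 76.4 CPM (median 73.7) in WT and 65.1 to 117 CPM (median 102.5) in Het. Het F10 lay below all WT libraries and the other 5 Het libraries above them, and Cdkn1c rose by 0.41 (SE 0.11, adjusted p = 0.0361). Btg1, an antiproliferative factor, rose by 0.27 (SE 0.08, adjusted p = 0.0473). Members called higher numbered 0 without Het F07, Het M01, Het M11, WT F04, WT F06, WT F12, WT M03 or Hom M02, 1 without Het F02, WT F05, WT F09, Hom F01, Hom F04 or Hom F09 and 4 without Het F10. Members called lower numbered 1 without Het F10, WT F09, WT M03 or the sex term, and 2 without Het M07, without the pair with unmatched sex or after median centring. With Het and WT libraries only, with the emptied directions as covariates or without the trended and robust variance, 0 were called in either direction. After correction for GC content and length, Cdkn1c (0.36, adjusted p = 0.0639) and Btg1 (0.18, adjusted p = 0.200) were not called.

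Progenitor markers gave 1 call among 21 radial glia genes and 1 among 16 intermediate progenitor and proneural genes. Both shares are near the 5.83% over all genes. Among 21 radial glia genes Mfge8, a secreted adhesion protein, was the called member and fell by 0.36 (SE 0.09, adjusted p = 0.0158), and the list's median was 0.06. Pax6, which specifies cortical radial glia, measured 95.6 to 111 CPM in WT and 88.8 to 114 CPM in Het, and Eomes, the factor of intermediate progenitors, 66.6 to 85.4 CPM and 63.9 to 87.7 CPM. Neither was called (changes -0.05 and 0.07, adjusted p = 0.753 and 0.694). Neurog2, the proneural factor that starts excitatory neurogenesis, measured 34.0 to 49.2 CPM (median 41.0) in WT and 47.2 to 54.3 CPM (median 53.0) in Het and rose by 0.36 (SE 0.09, adjusted p = 0.0235). It was not called without Het F02, Het F07, WT F04, WT F12 or WT M03, and Mfge8 was not called without Het F07.

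Of 31 genes of early neuronal differentiation, 5 were called higher and 1 lower (2.84% and 2.98% over all genes). The median change was 0.16. Bhlhe22, which guides the identity and axons of cortical projection neurons (chromosome 3, 18054174 to 18057517), measured 8.59, 10.3, 10.3, 11.9, 13.95 and 14.4 CPM in WT. In Het it measured 14.3, 14.65, 17.7, 20.2, 25.2 and 26.35 CPM. Het F10 lies just inside the WT range and Het M07 just above it, and the other 4 stand clear of it. Bhlhe22 rose by 0.81 (SE 0.16, adjusted p = 0.00648).

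Basp1, a membrane protein of growth cones, measured 100.1 to 124 CPM (median 118) in WT and 130 to 210 CPM (median 171) in Het. The groups do not overlap, and Basp1 rose by 0.53 (SE 0.10, adjusted p = 0.00652). Tmsb10, an actin-binding peptide, rose by 0.40, Stmn3, a microtubule regulator, by 0.28 and Neurod6 by 0.24. Tubb3, the neuronal tubulin of the same list, fell by 0.23 (SE 0.06, adjusted p = 0.0245), from 4386 to 5291 CPM in WT to 3809 to 4511 CPM in Het, and was not called without Het F07, WT F04 or WT M03. Members called higher numbered 2 without Het F02 or Het F07, 3 without Het M01, WT F04, WT F05, WT F06, WT F12, Hom F01, Hom F04 or Hom M02 and 10 without Het M07. With the values corrected for GC content and length, 2 of the 5 were called higher, Bhlhe22 and Basp1. Members called higher were 3 with Het and WT libraries only, with the emptied directions as covariates or after median centring, 2 without the trended and robust variance and 10 without the pair with unmatched sex.

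Of 13 upper-layer genes, 4 were called higher and 0 lower (2.84% and 2.98% over all genes), with a median of 0.19. Pou3f2 (BRN2), a POU factor of upper-layer neurons and their progenitors, rose by 0.36 (SE 0.08, adjusted p = 0.0108), from 41.5 to 53.1 CPM in WT to 55.5 to 69.2 CPM in Het without overlap. Unc5d, a netrin receptor of migrating upper-layer neurons, rose by 0.48 and Lmo4 by 0.36, whereas Cux1 (-0.05, adjusted p = 0.694) and Cux2 (0.12, adjusted p = 0.534) were not called. The list's calls numbered 0 without Het F07 and 2 without Het F02, Het M01, WT F04 or WT F12. They were 2 with Het and WT libraries only, with the emptied directions as covariates or after median centring, and 1 without the trended and robust variance.

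Of 16 deep-layer genes, 15 had positive changes, with a median of 0.22. Over all genes 6813 of 12429 changes were positive. In this list 1 gene was called, a share near the 5.83% over all genes. The called gene was Tbr1, which specifies corticothalamic neurons of layer 6 and subplate. It measured 30.7 to 39.4 CPM (median 34.4) in WT and 36.8 to 62.4 CPM (median 47.9) in Het and rose by 0.55 (SE 0.12, adjusted p = 0.00982). Het F07, F02, M11 and M01 stood above every WT library, and Het F10 and M07 inside the WT range. Fezf2 and Bcl11b, which set the subcerebral fate, were not called (0.25 and 0.24, adjusted p = 0.141 and 0.170). Without Het F07, or without the trended and robust variance, Tbr1 was not called.

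**Figure D3:**
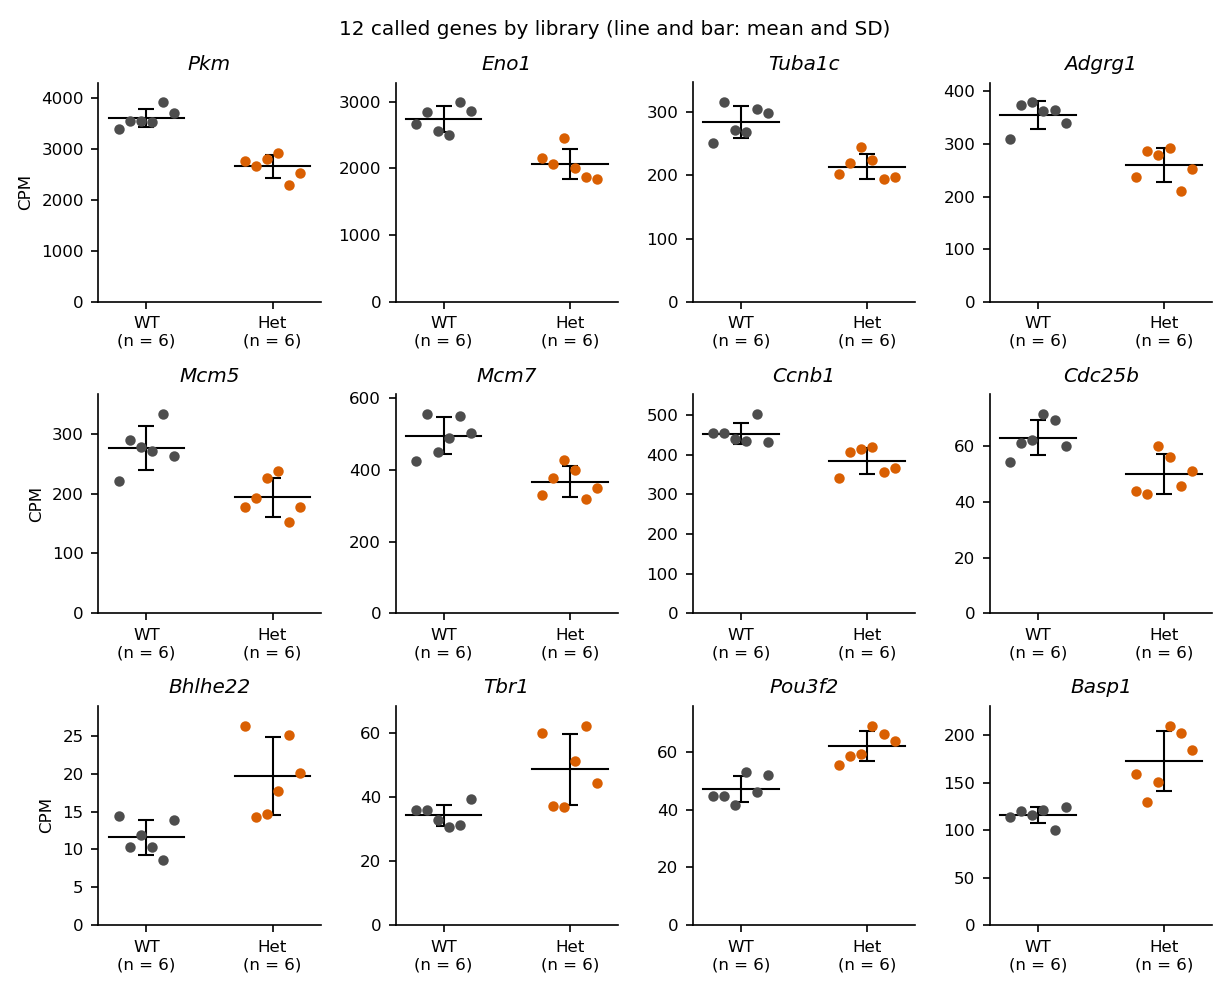
CPM of 12 called genes (vertical axes, from 0) in the 6 WT and 6 Het libraries; dots are libraries in identical order from panel to panel, the line is the mean and the bar the SD. Pkm, Eno1, Tuba1c, Adgrg1, Ccnb1, Pou3f2 and Basp1 show no overlap between groups, and in Tbr1 and Bhlhe22 Het F10 and M07 sit at the WT range or its edge.

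The median change of the early neuronal, upper-layer and deep-layer lists was positive in both identifier prefixes. In prefix 14526 it rests on Het F07 alone among Het embryos. For Cajal-Retzius and subplate genes the median was -0.06 in prefix 14424 and 0.08 in prefix 14526. For glutamate and GABA-A receptor genes the median was 0.05 in prefix 14424 and -0.05 in prefix 14526. In prefix 14424 and prefix 14526 it was 0.13 and 0.26 for early neuronal genes, 0.17 and 0.32 for upper-layer genes and 0.11 and 0.37 for deep-layer genes, while over all genes it was 0.02 and 0.05. For the genes of G2 and mitosis it was -0.10 and -0.31.

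Of 11 alpha and beta tubulins, all had negative changes and 7 were called lower (2.98% over all genes), with a median of -0.25. Tuba1c measured 251 to 315 CPM (median 285) in WT and 194 to 246 CPM (median 211) in Het and fell by 0.43 (SE 0.07, adjusted p = 0.00319). Tubb4b fell by 0.36, Tuba4a by 0.36, Tuba1b by 0.38 and Tubb5 by 0.25, and Tubb4a was called lower too. Members of this family are near-identical in sequence, so how reads were divided among them is uncertain. Without Het F07, or without the trended and robust variance, 3 were called.

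MYT1L works through SIN3B and histone deacetylases, and 3 of 12 such partners were called (5.83% over all genes), in both directions. Hdac1 measured 342 to 371 CPM (median 356) in WT and 254 to 329 CPM (median 285) in Het, without overlap, and fell by 0.31 (SE 0.06, adjusted p = 0.00648). Its close relative Hdac2 measured 77.3 to 97.8 CPM (median 87.4) in WT and 96.2 to 139 CPM (median 110) in Het, with WT F09 above Het F10, and rose by 0.39 (SE 0.09, adjusted p = 0.0158). Hdac3, the enzyme of the NCoR complex, fell by 0.25. Hdac6, a cytoplasmic tubulin deacetylase outside these complexes, fell by 0.54 (SE 0.09, adjusted p = 0.00226), from 58.7 to 76.8 CPM in WT to 44.7 to 61.9 CPM in Het. Sin3b was not called (0.08, adjusted p = 0.657). Among the partners, Hdac2 was not called without Het F02 or Het F07, 2 were called higher without Het M07, and 1 was called lower without Het F02, Het F07, WT F04, WT F06 or WT M03. Correction for GC content and length ended the Hdac2 call (0.28, adjusted p = 0.0560).

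MYT1L is known to repress Notch and Wnt signalling in culture. Of 21 Notch pathway genes 0 were called by limma (6 at an unadjusted p under 0.05), and the members with the lowest p were Numb (-0.41, adjusted p = 0.0654) and the receptor Notch1 (-0.48, adjusted p = 0.0675). Hes1 and Hes5, the classical Notch targets, were not called (0.21 and 0.07, adjusted p = 0.194 and 0.808), and 2 Notch pathway genes were called lower without the pair with unmatched sex. Of 31 Wnt pathway genes 2 were called lower, the adaptor Dvl3 (-0.29) and the transcription factor Tcf7l1 (-0.52), a share near the 5.83% over all genes, with a median of -0.03. Neither Wnt call held without Het F02, Het F07, Het M01, WT F04, WT F06, WT F12 or Hom M02, and 1 was left without Het F10, WT F05 or WT F09. Both were lost with GC and length correction, without the sex term, with Het and WT libraries only, with the emptied directions as covariates and without the trended and robust variance. Of 12 SOX factors 0 were called by limma (3 at an unadjusted p under 0.05), and Sox5, a deep-layer factor, and Sox13 had the lowest p there (0.21 and -0.48, adjusted p = 0.174 and 0.217).

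E14.5 precedes the formation of most cortical synapses. Of 27 presynaptic genes 1 was called, a share below the 5.83% over all genes. This gene, Syt11, fell by 0.27 (SE 0.06, adjusted p = 0.00964). Of 24 postsynaptic genes 2 were called higher and 1 lower (2.84% and 2.98% over all genes). The calcineurin subunits Ppp3cb and Ppp3cc changed by 0.43 and 1.02 and the kinase Camk2a by -0.97 (SE 0.22, adjusted p = 0.0102 by limma). Camk2a measured 3.34 to 7.63 CPM (median 6.21) in WT and 2.04 to 5.12 CPM (median 2.85) in Het. Camk2n1, an inhibitor of that kinase, rose by 0.62 (SE 0.14, adjusted p = 0.0114), from 11.3 to 17.7 CPM up to 18.5 to 24.7 CPM without overlap. Of 20 glutamate and GABA-A receptor genes and 25 voltage-gated ion channels 0 were called by limma, with 1 and 3 at an unadjusted p under 0.05. Syt11 was not called without Het F07, and the calcineurin pair gave 1 call without Het F02 and 0 without Het F07. Camk2a was joined by another fallen gene of its list without WT F05 or Hom F04.

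Among 39 chromatin and transcription genes tied to neurodevelopmental disorders, 2 were called higher, Tbr1 among them, and 0 lower, with a median of 0.01. That share is near the 5.83% over all genes. The count was 0 without Het F07 or without the trended and robust variance, and 4 higher and 1 lower without Het M07. Of 40 axon guidance genes 1 was called, a share below the 5.83% over all genes. This gene, Unc5d, was not called without Het F02, Het F07, Het M01, WT F04, WT F05, WT F06 or WT F12. The axon guidance calls were 2 higher and 4 lower without Het M07, 2 and 2 without Het F10, and 0 higher and 3 lower after correction for GC content with length or after median centring. With Het and WT libraries only, with the emptied directions as covariates or without the trended and robust variance they were 0. Of 10 genes of Cajal-Retzius and subplate neurons, the first-born cells of the cortex, Nhlh2 was called and rose by 0.64 (SE 0.16, adjusted p = 0.0235), and it was not called without Het F07, WT F04 or WT F12.

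Ribosomal and oxidative phosphorylation genes have short transcripts, and most of them were not called. Of 76 cytosolic ribosomal protein genes, 14 were called higher and 0 lower (2.84% and 2.98% over all genes), with a median of 0.14. Rps27 measured 1479 to 1903 CPM (median 1716) in WT and 1952 to 2493 CPM (median 2192) in Het, without overlap, and rose by 0.37 (SE 0.07, adjusted p = 0.00648). Rpl39 and Rpl35 rose by 0.42 each, also without overlap. After correction for GC content and length, 5 ribosomal protein genes were called higher and 3 lower and the median was 0.00. Members called higher numbered 4 without Het F07, 7 without WT F04, 8 without Het F02, 9 without WT M03, 22 without Het F10 or Het M07 and 1 without the trended and robust variance.

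Of 67 nuclear genes of oxidative phosphorylation, 15 were called higher and 1 lower (2.84% and 2.98% over all genes), with a median of 0.14. Cox6c, a subunit of cytochrome oxidase, rose by 0.38 (SE 0.08, adjusted p = 0.00748), Ndufa5 by 0.39 and Uqcrb by 0.44. The fallen member was Sdha, the catalytic subunit of succinate dehydrogenase, at -0.30 (SE 0.07, adjusted p = 0.0158). Among 11 transcripts of the mitochondrial genome 4 were called higher (2.84% over all genes), all 11 had positive changes and the median was 0.46. The transcript mt-Nd3, of complex I, measured 84.7 to 118 CPM (median 105) in WT and 125 to 215 CPM (median 164) in Het, without overlap, and rose by 0.67 (SE 0.12, adjusted p = 0.00535).

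After correction for GC content and length 4 nuclear subunits were called higher and 4 lower, and 0 mitochondrial transcripts were called, with medians of 0.02 and 0.10. The median transcript of the 3 lists measured 1100 bases for ribosomal proteins, 1231 for nuclear subunits and 957 for the mitochondrial genome. Nuclear subunits called higher numbered 3 without Het F07, 4 without Het F02, 5 without WT F04, 6 without Het M01, 7 without WT F12 or Hom M02 and 8 without WT M03. They numbered 6 with Het and WT libraries only, with the emptied directions as covariates or after median centring, 0 without the trended and robust variance and 27 without the pair with unmatched sex. Sdha was not called without Het F07. The mitochondrial count was 7 without the pair with unmatched sex. It was 2 with Het and WT libraries only, with the emptied directions as covariates, after median centring or without the trended and robust variance, and 2 without Het F02, Het F07, Het M01, WT F04, WT F05, WT F06, WT F12, Hom F01, Hom F04 or Hom M02.

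Enzymes of lipid and amino acid synthesis were lower where they were called. Of 26 genes of cholesterol synthesis and uptake, 4 were called lower and 0 higher (2.98% and 2.84% over all genes), with a median of -0.12. Lss, lanosterol synthase, measured 52.1 to 66.6 CPM (median 55.5) in WT and 32.2 to 51.98 CPM (median 41.7) in Het, just without overlap, and fell by 0.47 (SE 0.11, adjusted p = 0.0119). Hsd17b7 fell by 0.42, also without overlap, and Fdft1, squalene synthase, by 0.22. Of 22 ATF4 targets and serine or folate enzymes 3 were called lower (2.98% over all genes). Aldh18a1 of proline synthesis fell by 0.38, Mthfd1 of folate metabolism by 0.34 and Phgdh, which opens serine synthesis, by 0.33. Cholesterol calls numbered 1 without Het F07 and 2 without WT M03 or without the trended and robust variance. The ATF4 and serine calls numbered 0 without Het F07 or without the trended and robust variance, 1 without WT F04, 5 without Het F10 or WT M03 and 6 without Het M07.

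Of the genes of protein breakdown, a few were called. Of 33 genes of the proteasome and ubiquitin, 3 were called lower (2.98% over all genes). Among them were Psmd2, a proteasome subunit (-0.24), and Ubb, which encodes ubiquitin (-0.22). Psap, the precursor of lysosomal saposins, fell by 0.43 (SE 0.07, adjusted p = 0.00296) without overlap, and Ctsa by 0.28, out of 39 lysosomal genes. These 2 lysosomal calls are a share near the 5.83% over all genes. The proteasome and ubiquitin genes called lower numbered 1 without Het F07, Het M01, WT F04, WT F06 or WT M03 and 5 without WT F05. Without Het M07, 6 were called lower and 1 higher. After GC and length correction 5 were called lower, after median centring 6, and with Het and WT libraries only, with the emptied directions as covariates or without the trended and robust variance 1. The lysosomal genes called lower numbered 1 without Het F07, Het M01, Het M11, WT F04, WT F09, WT F12, WT M03, Hom F09 or Hom M02. Without Het M07, 6 lysosomal genes were called lower and 2 higher, and without WT M03 2 were called higher. Of 21 apoptosis genes 1 was called higher and 1 lower (2.84% and 2.98% over all genes). Xiap, an inhibitor of caspases, rose by 0.51 and Bak1, a pore-forming death effector, fell by 0.97. Xiap was not called without Het F02, Het F07, Het M01, WT F04, WT F06, WT F09, WT F12 or Hom M02, and Bak1 without Het F02, WT F04 or WT M03.

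The largest changes without overlap between groups, among genes averaging at least 5 CPM, were mostly of genes outside these lists. Defb11, a beta-defensin, rose most (1.05, SE 0.23, adjusted p = 0.00914 by limma). It measured 1.77 to 4.22 CPM (median 3.63) in WT and 4.82 to 9.49 CPM (median 7.16) in Het. Every WT library lay below 5 CPM, so Defb11 met that rule only through its Het libraries. Eid1, an inhibitor of the histone acetyltransferases p300 and CBP, rose by 0.67 (SE 0.11, adjusted p = 0.00226), from 43.0 to 52.9 CPM (median 49.2) to 59.0 to 96.9 CPM (median 79.2). Het F10 was the lowest Het library for Eid1 and Het F07 the highest.

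The other rises ran from 0.55 to 0.67: mt-Nd3, Ndfip2, Ap1s2, Nbn, Exoc5, Camk2n1, Tmem65, Cfap36, Rps27rt, Snapc1, Purg, Coa6 and Naa30. They include trafficking genes (Ap1s2, Exoc5) and a DNA repair gene (Nbn). Of the 15 rises, 9 were not called once values were corrected for GC content and length, among them Defb11 (0.64, adjusted p = 0.1003), Ndfip2, Ap1s2 and Nbn.

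Among the falls of that kind, Kif18b, a mitotic kinesin, changed most (-0.71, SE 0.20, adjusted p = 0.0366 by limma). It measured 5.44 to 9.79 CPM in WT and 2.17 to 5.39 CPM in Het, so it met the rule of 5 CPM through its WT libraries. Adgrg1 (GPR56), an adhesion receptor of radial glia, measured 309.8 to 379 CPM (median 364) in WT and 210.5 to 292 CPM (median 266) in Het and fell by 0.52 (SE 0.08, adjusted p = 0.00226). Dync1h1, the heavy chain of cytoplasmic dynein, fell by 0.52 (SE 0.10, adjusted p = 0.00645), from 106 to 122 CPM to 73.2 to 98.2 CPM. Copg1, a COPI coat subunit, fell by 0.52 and Taf8, a TFIID subunit, by 0.53. Lrp1, an endocytic receptor, fell by 0.50, and Pml, Prelp, Rhbdd1, Siah3, Kctd21, Suox, Pcsk7 and BC030867 were others, with changes between -0.63 and -0.48.

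**Figure D4:**
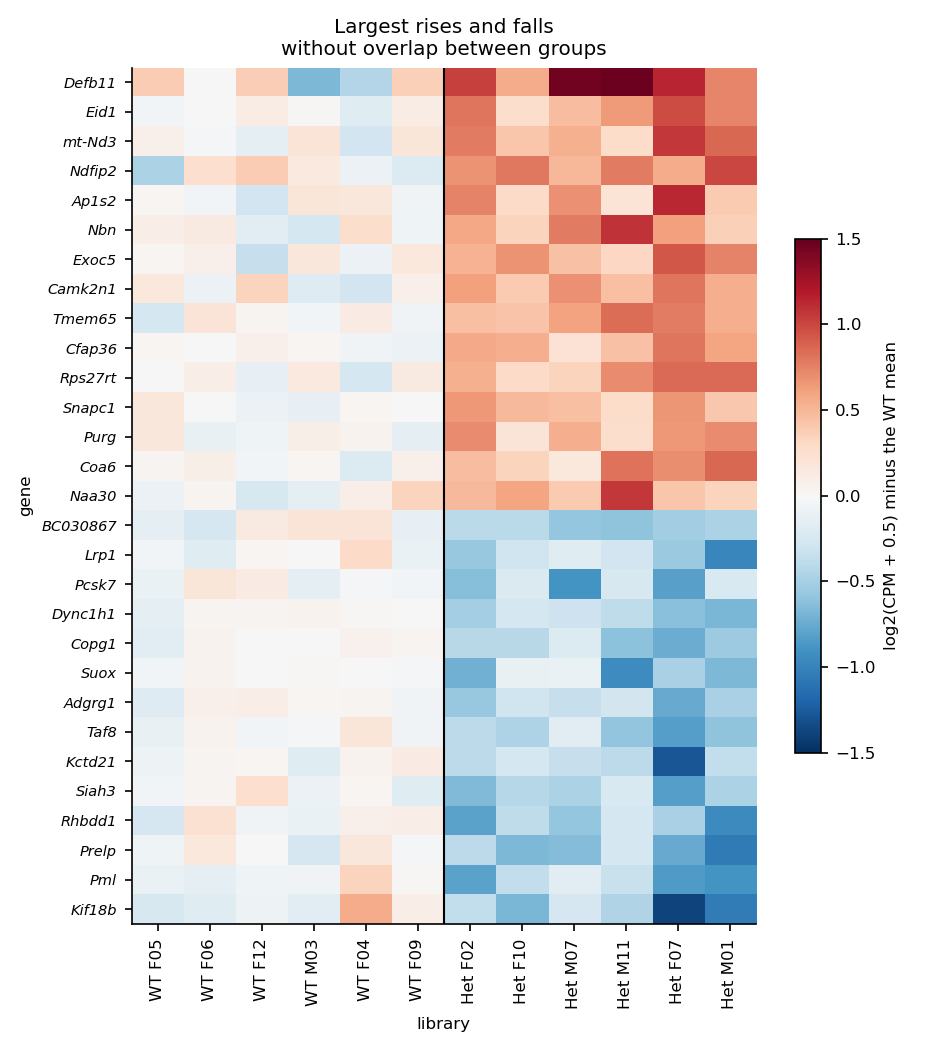
Log2(CPM + 0.5) minus the WT mean (colour, blue below and red above 0) for the largest rises and falls without overlap between groups (rows) in the 6 WT and 6 Het libraries (columns). The genes were chosen for this separation, so the 2 blocks of colour are no finding; what varies is the depth of colour, with Kif18b, Kctd21 and mt-Nd3 among the genes deepest in Het F07.

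Markers of other cell types were measured as well, and their part in the results above was not tested. The summed level of the choroid plexus markers ran from 1478 to 4132 CPM in WT and from 3102 to 5365 CPM in Het. It was carried by Ttr (0.73, SE 0.27, adjusted p = 0.140), and 11 of 12 tested markers had positive changes, with a median of 0.42, 0 called by limma and 4 at an unadjusted p under 0.05. Of 24 meningeal and collagen genes 3 were called higher (2.84% over all genes). These were Lox (1.15), Ogn (0.76) and Aldh1a2 (0.73), all at 8.99 CPM or less in each E14.5 library. None of the 3 was called without WT F04, WT M03 or Het F07, and 1 was without WT F06.

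GABAergic markers, of neurons born in the ventral telencephalon, summed to 115 to 158 CPM in WT and 141 to 206 CPM in Het. Of 15, Maf, a factor of interneuron precursors, was the called member, a share near the 5.83% over all genes. Maf rose by 0.72 (SE 0.18, adjusted p = 0.0209), and the list median was 0.34. Maf was not called without Het F07, WT F04 or WT M03. Striatal and ventral markers summed to 169 to 195 CPM and 183 to 238 CPM, with 0 of 13 called (2 at an unadjusted p under 0.05). Isl1, a ventral marker, stood at 12.7 CPM in Het M07 and at 0 to 5.11 CPM in the other WT and Het libraries. Markers of microglia (13 tested), endothelium and pericytes (18), erythroid cells (11) and oligodendrocytes (6) gave 0 calls by limma, with 3 at an unadjusted p under 0.05 in microglia and 0 in the others. Their summed levels overlapped between WT and Het, and the defining astrocyte channel Aqp4 was at 1.06 CPM or less in every WT and Het library.

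**Figure D5:**
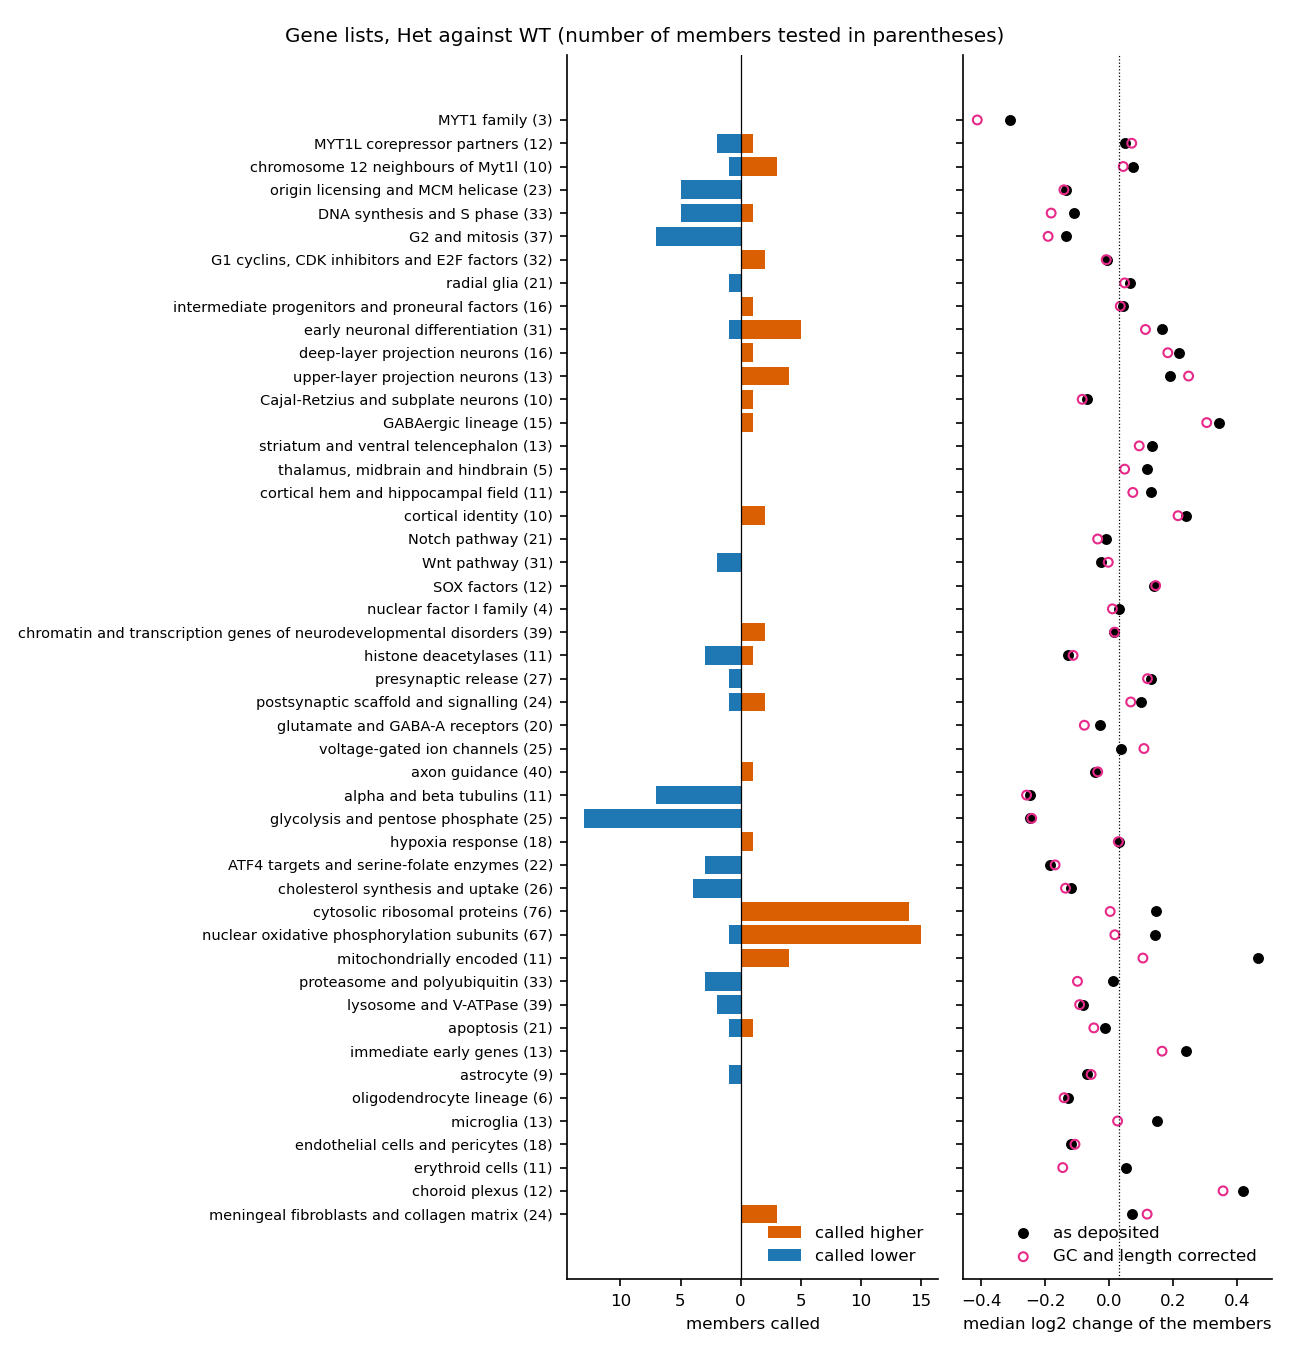
Left, members of each gene list called lower (blue, to the left) and higher (orange, to the right) in Het against WT; right, the median log2 change of each list's tested members as deposited (filled) and with GC content and length corrected (open), with a dotted line at 0.03 for all genes. Glycolysis has 13 calls, all lower, and its open and filled points coincide near -0.25, while the ribosomal, oxidative phosphorylation and mitochondrial lists move toward 0 after correction.

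The neighbours of Myt1l on chromosome 12 did not share a direction. Of 10 tested, Ttc32 (0.62), Sh3yl1 (0.42) and Rps7 (0.28) were called higher and Trappc12 (-0.43) lower. Over all genes 2.84% were called higher and 2.98% lower. Of the rises, 0 were called without Het F02 or Het F07 and 1 without Het M01, WT F04, WT F06, WT M03 or Hom M02, and Trappc12 was not called without Het F02 or Het F07. After GC and length correction Trappc12 was the called neighbour, and without the trended and robust variance 0 were called. With Het and WT libraries only, with the emptied directions as covariates or after median centring, 1 neighbour was called higher and 1 lower.

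Few differences between embryos lacking both Myt1l copies and those lacking 1 passed the test. Between Hom and Het embryos 1 of 12429 genes (0.00805%) was called by limma, Myt1l itself, with 636 at an unadjusted p under 0.05. For Pkm, Mcm5 and Basp1 the Hom mean was nearer to the Het than to the WT mean. Pkm averaged 3607 CPM in WT, 2663 in Het and 2542 in Hom, Mcm5 276, 194 and 183, and Basp1 116, 173 and 183. Camk2a averaged 5.83 CPM in WT, 3.15 in Het and 4.64 in Hom. Ogn and Defb11 were nearer to WT in Hom embryos (3.92 and 3.82 CPM in Hom against 3.92 and 3.27 in WT and 7.06 and 7.25 in Het), with Hom minus Het changes of -0.75 and -0.83 that were not called. Comparisons of each mutant with WT share the WT libraries, so these levels are given only side by side. With a term for the identifier prefix, with voom, without the trended and robust variance, with the adjustment directions as covariates, after GC and length correction or in prefix 14424 alone, the count was 0. It was also 0 when Het F07, Het M01, Het M07, WT F04, WT F06, WT F12, WT M03 or any single Hom library was left out.

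Heterozygous adults shared 1 called gene with these embryos. In the PFC 52 of 12870 genes (0.404%) were called in Het, and 700 of the 724 genes called at E14.5 were tested there. The shared gene was Btg1, which rose by 0.27 at E14.5 and by 0.45 in the PFC (SE 0.09, adjusted p = 0.0283), and 0 genes were called in opposite directions. Pkm (-0.08, adjusted p = 0.520), Basp1 (0.14, 0.473) and Tbr1 (0.15, 0.447) were not called in the adult. Without a filter on low values, or without the trended and robust variance, the shared count was 0. Btg1 at E14.5 was also not called after GC and length correction (0.18, adjusted p = 0.200), after median centring, without the sex term, with the prefix as a term, with Het and WT libraries only or with the emptied directions as covariates. It was called in 2 of the 16 fits that left out a library, those without Het F10 or Het M07.

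The MYT1L core AAGTT stood within 250 bases before the start of 32.4% of the 9822 genes with a RefSeq promoter. It was found before 70 of 279 genes called higher (25.1%) and 113 of 300 called lower (37.7%). Among called glycolysis genes it was found before 8 of 13, and among all 23 glycolysis genes with a promoter before 10 (43.5%). These are counts of letters on either strand, and MYT1L binding was not analysed here.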

How the data were processed

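The authors deposited log2 values per gene, 1 table for each age, which are log2 CPM after removal of unwanted variation. The submitters' processing notes name Trimmomatic, Bowtie2, STAR, HTSeq and mm10, with versions and roles not given in the sources used here. Per the labels' protocols, RNA was purified with a Zymo kit and libraries were made with a SMARTer Ultra Low kit. Whether counting used strand is not given, so overlapping and antisense genes cannot be told apart. Read from the values, the deposited log2 CPM carry a prior count of 2, and undoing it gave whole numbers for all values within 0.01. These sum to 27827467 to 30811856 a library after the adjustment, so they are not read depths, the depth is unknown and no counting interval is given.

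A gene was kept if 4 or more E14.5 libraries (6 in the PFC) reached 1 CPM. Values were tested as log2(CPM + 0.5), which understates changes of low genes, with limma 3.58.1 in R 4.3.3 (lmFit, eBayes with trend and robust), genotype and labelled sex as terms and all 16 E14.5 libraries in 1 fit. P-values were Benjamini-Hochberg adjusted over all genes tested, with a threshold of 0.05. The labels name separate animals but no litters, so p-values measure the spread between these libraries that was left after the authors' adjustment. The main fit did not count the 2 directions emptied by that adjustment, so its p-values may be too small. With them as covariates 335 genes were called, against 724 in the main fit. No libraries were alike enough to count as 1: any pair differed in at least 13663 genes. Gene names and positions come from the GENCODE annotation of GRCm38, which matched 13845 of 13846 genes.

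The members and gene lists were chosen with earlier results of these data known. Genes were named by rule: the MYT1 family, the 15 largest rises and falls without overlap at a mean of at least 5 CPM, up to 6 called members of each list by lowest p, and the 2 members with the lowest p of a list without calls. Results for some genes are not reported here. Other genes are named as known members of a list and were chosen after their values were seen. The fit was also run on simulated data with known changes, and the outcome is not given here. Alternatives covered the pseudocount, filter, scaling, GC content and length, sex and prefix terms, variance model and left-out libraries. Figures were drawn with matplotlib 3.10.9.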

Additional observations from a re-analysis of the deposited data

Results flagged for a closer look

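In 18 of 242 sets of 6 libraries (1 named gene in 1 genotype), the library at one end stood apart from the nearest other by more than Dixon's 95% critical share of the set's whole range, which chance gives in about 5% of sets. The share of the range is given first, then the library's CPM and the median of the other 5.

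Among WT libraries, F05 was low in 4 genes that were called lower in Het: Dync1h1 (0.781, 106 against 121 CPM), Tkt (0.794, 701 against 820 CPM), Fdft1 (0.691, 477 against 543 CPM) and Copg1 (0.666, 239 against 274 CPM). WT F04 was high in 3 genes of that kind: Kif20a (0.678, 128 against 103 CPM), Pml (0.664, 19.8 against 14.9 CPM) and Ccnb1 (0.645, 502 against 439 CPM). WT F09 was high in Dvl3 (0.709, 129 against 107.5 CPM).

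Among Het libraries, F07 was high in Hif1a (0.755, 43.7 against 31.7 CPM). It was low in Kctd21 (0.873, 5.69 against 11.1 CPM), Mthfd1 (0.777, 33.4 against 40.7 CPM), Psmd2 (0.766, 356 against 441 CPM) and Syt11 (0.676, 499 against 564 CPM). In each of these genes F07 lay on the side away from WT. Het M07 lay on the WT side in Tuba1b (0.711, 1902 against 1462 CPM), Gapdh (0.690, 3963 against 3000 CPM), Gpi1 (0.646, 338 against 276 CPM) and Nhlh2 (0.795, 6.07 against 10.98 CPM). Het M11 was high in Naa30 (0.649, 13.4 against 8.40 CPM).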

How the results depend on the processing

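The number of genes called between Het and WT embryos was 379 (160 higher, 219 lower) with Het and WT libraries only, 335 (147 and 188) with the 2 directions emptied by the authors' adjustment as covariates, and 225 (114 and 111) without the trended and robust variance. It was 0 (0 and 0) in prefix 14424. The fit in prefix 14526 gave 164 (53 and 111), but there Het F07 alone is compared with WT F04 and WT F09. That count cannot describe Het embryos as a group and cannot be set against the 0 of prefix 14424. Calls higher numbered 213 after median centring, 112 after correction for GC content and length and 594 without the 2 Het libraries with unmatched sex. Leaving out 1 library gave 131 to 1177 calls, 54 to 586 higher and 77 to 591 lower. The other alternatives stayed within 1.5 times of the 724. Myt1l ranged from -0.54 to -0.26 over left-out libraries and was called without Het F02. Between Hom and Het the count was 0 with GC and length correction, with the prefix as a covariate and in prefix 14424. It was also 0 with the emptied directions as covariates, without the trended and robust variance and with voom. Over left-out libraries it was 0 to 1. In prefix 14526 it was 3, from Hom M02 alone against Het M01 alone, so nothing is drawn from it. The difference between prefixes gave 0 to 1 calls. The gene shared with the PFC was lost (0) without a filter and without the trended and robust variance, and Btg1 was called at E14.5 in 2 of 16 fits without a library. Of 120 called genes with a planned comparison, 1 changed sign, Rpa3 (log2 change -0.066) after GC and length correction. Of these 120, 77 kept sign and call after that correction, 44 without Het F07 and 2 in prefix 14424. The causes were not tested. The labels name no pairs or litters, so no paired analysis was run. The identifier prefix as a covariate gave 585 calls. Depth is unknown, so its limit on low genes cannot be given.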
